A study of Mus musculus with 12 samples.

Results

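A set of 10 T-box transcription factor genes, Tbx1, Tbx2, Tbx3, Tbx4, Tbx5, Tbx15, Tbx18, Tbx20, Tbx21 and Eomes, was examined for MOF peaks in visceral white adipose tissue (WAT) of Mof+/+ and Mof+/- mice. They were listed by name for their known roles in fat depots, limbs, heart and lymphocytes, and make up 10 of the 21938 protein-coding genes annotated on chromosomes 1 to 19, X and Y. A peak was assigned to a gene when it shared at least 1 bp with the gene body or with the 3 kb on either side of any annotated start site. Coordinates are GRCm38, counted from 1. By this rule 14 peaks of the Mof+/+ list and 8 peaks of the Mof+/- list lay at the 10 genes.

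T-box factors share a DNA-binding domain first described in the product of T (Brachyury), and members act as activators or repressors of genes that lay out the body plan. In adult mice some of them mark positions along the body, so that fat depots differ in the T-box genes they express, while Tbx21 and Eomes direct the fate of T cells and natural killer cells. MOF (KAT8) is a histone acetyltransferase known for acetylation of a lysine in the tail of histone H4, a mark of open chromatin, and it is often found at promoters of active genes.

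The study used chromatin immunoprecipitation followed by sequencing (ChIP-seq) on C57BL/6 mice aged 8 weeks on a standard diet, and the labels describe 12 libraries in 6 groups of 2, with MOF ChIP, H3 ChIP and input in each genotype. The Mof+/+ group is wild type, and the Mof+/- group carries a single functional copy of Mof in every cell, so that effects arising outside fat are included. The labels give 2 MOF ChIP libraries per genotype whereas the design text speaks of 2 control and 3 Mof+/- animals, and the reporting summary names 2 littermates of each genotype, as the labels do. Each genotype is represented by 1 peak list with no value per library, so differences between the lists could not be compared with the spread between animals, no test was run, and intervals cover counting error only.

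The lists differed in size and depth. There were 19773 peaks for Mof+/+ and 731 for Mof+/-. The lowest background among Mof+/+ peaks was 3.52 fragments, which is 1.56 times the 2.26 fragments found for Mof+/-. Summits of several genes shared each of these values, so both are read as a floor of the list and not as local input at 1 site. At those levels 11 fragments over the summit would have been needed to reach the weakest p-value of either list. Those 11 fragments correspond to a fold enrichment (ChIP over local input at the summit) of 2.65 for Mof+/+ and 3.68 for Mof+/-. Higher local backgrounds need more fragments at a lower fold. A gene without a peak is therefore one whose enrichment did not reach the threshold of its list, and not one shown to lack MOF. The tissue is bulk WAT, in which fewer cells of a type and less MOF per cell cannot be told apart.

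The peaks at the T-box genes are easiest to see on the genome sequence. The windows below are centred on the summit of the strongest peak of Eomes, Tbx15, Tbx18 and Tbx20, 4 of the 5 genes with a Mof+/- peak, and of Tbx4, whose peak shows a site of the Mof+/+ list alone. They are from RefSeq GRCm38.p6, run 5′ to 3′ on the strand of the gene, and capitals mark CpG dinucleotides. The positions are chr9:118477476-118477676 (Eomes), chr3:99252635-99252835 (Tbx15), chr9:87730658-87730844 (Tbx18), chr9:24770156-24770356 (Tbx20) and chr11:85886769-85886969 (Tbx4). The windows of Tbx18 and Tbx20 are on the minus strand, the others are on the plus strand, and the Tbx18 window is shortened to 187 bases because its remaining bases are untranslated sequence. Tbx18 had a second Mof+/- peak of equal fold enrichment, which is not shown.
Eomes Mof+/+: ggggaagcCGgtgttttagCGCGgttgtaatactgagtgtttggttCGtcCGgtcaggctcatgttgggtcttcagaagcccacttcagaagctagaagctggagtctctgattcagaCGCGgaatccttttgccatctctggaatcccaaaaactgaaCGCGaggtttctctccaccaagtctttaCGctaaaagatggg
Tbx15 Mof+/-: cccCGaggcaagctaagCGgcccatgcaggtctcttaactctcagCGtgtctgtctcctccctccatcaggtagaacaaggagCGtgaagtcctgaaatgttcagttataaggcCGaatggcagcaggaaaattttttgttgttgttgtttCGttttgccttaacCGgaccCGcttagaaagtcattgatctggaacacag
Tbx18 Mof+/-: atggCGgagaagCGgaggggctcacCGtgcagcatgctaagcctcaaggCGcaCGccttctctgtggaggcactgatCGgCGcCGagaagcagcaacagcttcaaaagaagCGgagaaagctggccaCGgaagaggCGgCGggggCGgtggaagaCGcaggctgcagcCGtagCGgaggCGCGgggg
Tbx20 Mof+/-: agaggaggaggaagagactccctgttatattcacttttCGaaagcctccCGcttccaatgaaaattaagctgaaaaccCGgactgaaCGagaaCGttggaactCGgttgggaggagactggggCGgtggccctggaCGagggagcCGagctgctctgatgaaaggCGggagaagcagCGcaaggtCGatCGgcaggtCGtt
Tbx4 Mof+/+: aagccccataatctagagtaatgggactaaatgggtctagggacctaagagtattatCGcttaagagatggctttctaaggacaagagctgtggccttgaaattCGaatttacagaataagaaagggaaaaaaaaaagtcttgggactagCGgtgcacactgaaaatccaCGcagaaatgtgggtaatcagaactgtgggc

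The Tbx18 window is within coding sequence and held 18 CpG dinucleotides, the most of the 5. The Tbx20 window is intronic and held 14. The Eomes window, upstream of the gene, held 10, with CGCG repeated within it. The Tbx15 window is intronic and held 8. The Tbx4 window, also intronic, held 4.

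To ask which T-box genes carried MOF in either genotype, peaks were first counted per gene. In Mof+/+ WAT, 6 of the 10 genes had a peak (60.0%, Wilson 95% interval 31.3 to 83.2), namely Tbx2, Tbx4, Tbx5, Tbx15, Tbx18 and Eomes. Among all protein-coding genes the share was 44.5%, which lies within that interval. In Mof+/- WAT, 5 of the 10 had a peak (50%, 23.7 to 76.3), namely Tbx2, Tbx15, Tbx18, Tbx20 and Eomes, where the share of all protein-coding genes was 1.89%. The 10 genes were listed with earlier results of these data known, so that their share is given as a description.

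The genes fell into 4 classes. Tbx2, Tbx15, Tbx18 and Eomes had peaks in both lists. They were 4 of the 6 genes with a Mof+/+ peak (66.7%), whereas of all protein-coding genes with a Mof+/+ peak 4.06% had a Mof+/- peak too. Tbx4 and Tbx5 had a peak in the Mof+/+ list only, as did 42.7% of protein-coding genes. Tbx20 had peaks in the Mof+/- list only, a class that held 18 protein-coding genes in all (0.0820%). Tbx1, Tbx3 and Tbx21 had a peak in neither list, as did 55.4%. Tbx15, Tbx18 and Tbx20 each had 2 Mof+/- peaks, and 0.570% of protein-coding genes had at least 2. When peaks within 1000 bp were merged, the Mof+/- list held 5 peaks at 5 of the genes, so that none of the 10 genes had 2. Counting only peaks within 1 kb of a start site returned 6 genes for Mof+/+ and 5 for Mof+/- again, where the shares of all protein-coding genes were 41.0% and 1.32%.

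**Figure D1:**
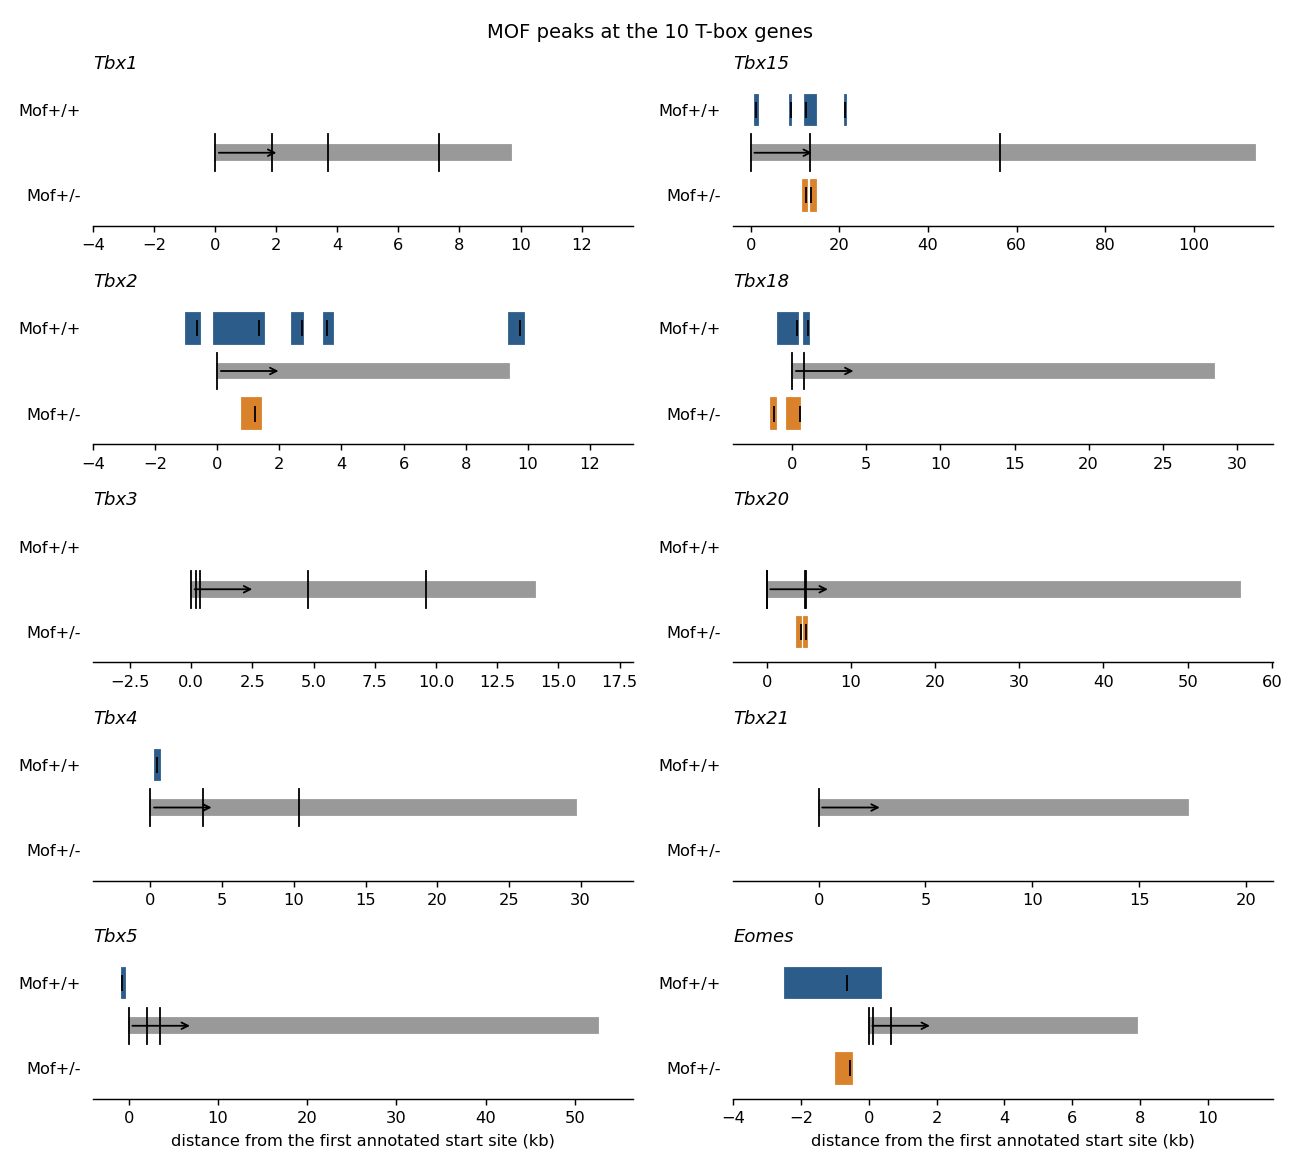
Maps of the 10 genes in the direction of transcription, with distance from the first annotated start site in kb on the horizontal axis, the gene body in grey, start sites as vertical lines, Mof+/+ peaks in blue above, Mof+/- peaks in orange below and summits as black ticks. Of the 14 Mof+/+ and 8 Mof+/- peaks 9 and 7 lie within 1 kb of a start site, and Tbx1, Tbx3 and Tbx21 carry none.

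Tbx15 marks subcutaneous and brown depots and takes part in skeletal and muscle development. It lies on chr3:99240381-99354259 with 3 annotated start sites, and had 4 Mof+/+ peaks and 2 Mof+/- peaks. The strongest Mof+/+ peak, at chr3:99252655-99255042, was 2388 bp wide with a fold enrichment of 4.20 (95% counting interval 2.58 to 6.51) from 18 fragments. It covered the second start site, 13379 bp downstream of the first, and not the first itself.

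Both Mof+/- peaks of Tbx15 overlapped that wide peak and lay on either side of the second start site. The upstream one, at chr3:99252244-99253115, had a fold enrichment of 5.42 (3.28 to 8.50, 17 fragments), the highest Mof+/- value among the 10 genes. It shared 461 bp, or 52.9% of its length, with the Mof+/+ peak, and the summits were 109 bp apart. The downstream one, at chr3:99253955-99255011, had a fold enrichment of 3.71 (2.14 to 6.05, 14 fragments) and lay wholly inside the Mof+/+ peak. The other 3 Mof+/+ peaks had fold enrichments of 2.56 to 3.66, and the one nearest the first start site rested on 23 fragments. Gm43120, an antisense transcript, overlaps the region of the downstream peak. Peaks covered 3809 bp of Tbx15 in Mof+/+ and 1929 bp in Mof+/-, the latter being the longest Mof+/- coverage of the 10 genes.

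Tbx1, which is expressed in beige adipocytes and is best known for pharyngeal arch development, had no peak in either list. The nearest Mof+/+ peak was 84569 bp from its start sites, at the start sites of Gnb1l and Rtl10. Its promoter held 47 CpG within 500 bp of the first start site, the same number as that of Eomes, which did carry peaks.

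Tbx18 is required for the sinoatrial node and the ureter and is expressed in mural cells of vessels, including those of fat. On chr9:87702800-87731260, transcribed from the minus strand, it had 2 peaks in each list. The Mof+/+ peak over the start, at chr9:87730890-87732252, was 1363 bp wide with a fold enrichment of 2.74 (1.66 to 4.30, 17 fragments). The Mof+/- peak over the start, at chr9:87730727-87731627, was 901 bp wide with a fold enrichment of 4.60 (2.65 to 7.51, 14 fragments). These peaks shared 738 bp, or 54.1% of the first and 81.9% of the second. The start of Tbx18 was thus covered in both lists. The second Mof+/- peak, at chr9:87732364-87732728, had its summit at -1209 bp from the first start site and met no Mof+/+ peak. It lay just upstream of the Mof+/+ peak over the start. The other Mof+/+ peak was intronic, with a fold enrichment of 3.54 (2.08 to 5.69, 15 fragments). It met no Mof+/- peak but lay just downstream of the Mof+/- peak over the start. An annotated transcript on the other strand, D030062O11Rik, overlaps this promoter.

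Tbx20, a regulator of heart chamber and valve formation, lies on the same chromosome at chr9:24718138-24774303, also on the minus strand. It had no Mof+/+ peak, and the nearest one was 265888 bp away, at Dpy19l1. In Mof+/- WAT it had 2 peaks, both inside the gene and close to internal start sites, which lie 4553 and 4623 bp downstream of the first. The peak at chr9:24770213-24770733 had a fold enrichment of 4.91 (2.88 to 7.89, 15 fragments). The peak at chr9:24769558-24769837 covered both of these internal starts, with a fold enrichment of 4.29 (2.43 to 7.12, 13 fragments). Tbx20 was the one gene of the 10 with peaks in Mof+/- WAT alone.

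Tbx2 and Tbx4 are neighbours on chromosome 11, and Tbx3 and Tbx5 are neighbours on chromosome 5, pairs that arose from an ancient tandem duplication. Tbx2, a repressor that acts in heart, limb and lung and restrains chamber differentiation in the heart, lies on chr11:85832551-85841948 and had 5 Mof+/+ peaks. The peak over its start site, at chr11:85832444-85834059, had a fold enrichment of 7.30 (5.06 to 10.2) from 32 fragments, the strongest of the peaks at the 10 genes in either list. Of all Mof+/+ peaks, 99.4% had a lower fold enrichment. Its summit was in an intron, 1339 bp downstream of the start. The other 4 peaks of Tbx2 had fold enrichments of 2.56 to 2.90, and one of them, past the end of the gene, shared 3 bp with it.

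In Mof+/- WAT the single peak of Tbx2 lay at this strongest site. The Mof+/- peak, at chr11:85833349-85833959, had a fold enrichment of 5.24 (3.17 to 8.21, 17 fragments), lay wholly inside the Mof+/+ peak, and had its summit 130 bp from the Mof+/+ summit. A noncoding transcript on the other strand, 2610027K06Rik, begins next to this promoter. Tbx4, needed for the hindlimb and for lung fibroblasts, had 1 Mof+/+ peak at chr11:85886754-85887059, 306 bp wide, with a fold enrichment of 3.31 (2.00 to 5.19, 17 fragments). Its summit was 447 bp downstream of the start, and no Mof+/- peak was closer than the one at Tbx2, 52463 bp from the start sites of Tbx4.

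Tbx5, required for the forelimb and heart, had 1 Mof+/+ peak, at chr5:119831872-119832248, upstream of the gene. Its fold enrichment was 3.10 (1.75 to 5.14, 13 fragments), and it overlaps the noncoding transcript Gm43050. No Mof+/- peak was found there. Tbx3, a repressor required for limb and mammary development, had no peak in either list, and the peak nearest to it was the one at Tbx5, 151623 bp away. Tbx2 and Tbx4 thus differed in the Mof+/- list, and Tbx3 and Tbx5 in the Mof+/+ list.

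The lymphoid genes also differed from each other. Eomes, a factor of memory CD8 T cells and natural killer cells as well as of the early embryo, lies on chr9:118478212-118486132. It had a Mof+/+ peak of 2833 bp, the widest of the 14, at chr9:118475751-118478583, which covered the first start site and had a fold enrichment of 4.87 (3.10 to 7.32, 21 fragments). The Mof+/- peak, at chr9:118477248-118477709, had a fold enrichment of 3.96 (2.32 to 6.36, 15 fragments). It lay wholly inside the Mof+/+ peak, with summits 71 bp apart, and spanned 16.3% of it. Tbx21, which encodes T-bet, the factor that drives type 1 helper T cells, had no peak in either list. The closest Mof+/+ peak was 10998 bp upstream of its start, with a fold enrichment of 3.98, and 10 Mof+/+ peaks lay within 100 kb.

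**Figure D2:**
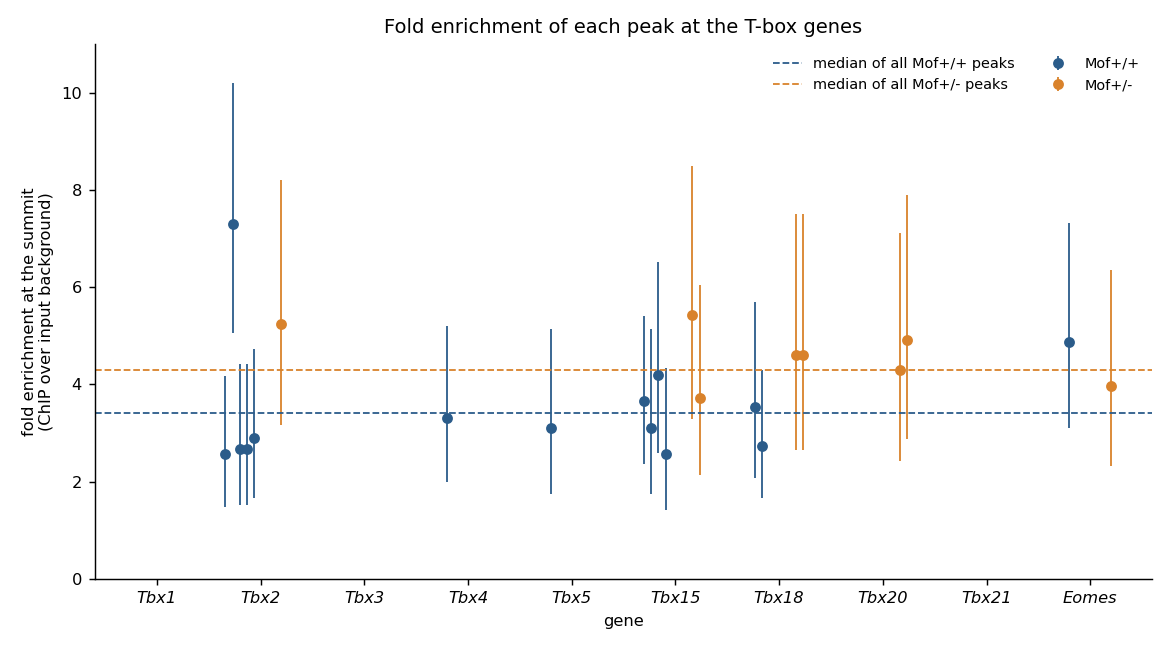
Fold enrichment at the summit (ChIP over input background, linear axis) of each peak, by gene, with Mof+/+ in blue and Mof+/- in orange, where bars are 95% counting intervals and dashed lines the medians of the whole lists, 3.40 and 4.29. The Tbx2 peak at 7.30 is the highest, and the remaining values lie between 2.56 and 5.42.

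Strength was compared next. The Mof+/+ peaks at the T-box genes had a median fold enrichment of 3.10 (range 2.56 to 7.30), against 3.54 for Mof+/+ peaks at all protein-coding genes. The Mof+/- peaks had a median of 4.60 (range 3.71 to 5.42), against 4.29. Median width was 437.5 bp against 632 bp in the Mof+/+ list, and 566 bp against 440 bp in the Mof+/- list. With no replicate error to set them against, these differences are a description, and those in width depended on the threshold. With the q-value threshold at 0.01, the Mof+/+ widths were 725 bp (9 peaks) against 743 bp, and with 0.001 they were 1170.5 bp (6 peaks) against 917 bp. In the Mof+/- list the widths were 566 bp against 493 bp with 0.01, and 611 bp (5 peaks) against 697 bp with 0.001. The Mof+/+ median fold enrichment stayed below that of all protein-coding genes with both thresholds, at 3.54 against 3.76 and at 3.93 against 4.14, while the Mof+/- medians equalled theirs.

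To ask whether the same sites were found in both genotypes, overlap was counted. Of the 14 Mof+/+ peaks, 4 overlapped a Mof+/- peak (28.6%, 11.7 to 54.6), where 2.43% of Mof+/+ peaks at all protein-coding genes did. In the other direction, 5 of the 8 Mof+/- peaks overlapped a Mof+/+ peak (62.5%, 30.6 to 86.3), against 86.9%. The 3 that did not were both peaks of Tbx20 and the upstream peak of Tbx18, which lay just beside a Mof+/+ peak. In each of the 5 overlapping pairs the counting intervals of fold enrichment overlapped, and the summits of 4 pairs lay 71 to 195 bp apart, with 1227 bp in the pair formed by the downstream Tbx15 peak. By fold enrichment the Mof+/- peak was lower than its Mof+/+ partner at Tbx2, Eomes and the downstream Tbx15 peak, and higher at Tbx18 and the upstream Tbx15 peak.

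Fold enrichment is a ratio to backgrounds that differed between the lists, so the fragments themselves were compared. Mof+/+ summits at the T-box genes held 12 to 32 fragments and Mof+/- summits 13 to 17. When the Mof+/+ counts and backgrounds were divided by 1.56, 4 of the 14 peaks still passed the weakest Mof+/- p-value, and 3 of these 4 overlapped a Mof+/- peak. They were the strongest peak of Tbx2, the wide peak of Tbx15, the Eomes peak, and the Tbx15 peak nearest its first start site, which was the one that met no Mof+/- peak. The peaks of Tbx4 and Tbx5, which had no Mof+/- peak, did not pass after this scaling. Neither did the 2 peaks of Tbx18, a gene with 2 Mof+/- peaks, of which 1 overlapped the Mof+/+ peak over the start. Of all Mof+/+ peaks, 30.1% passed, and of all Mof+/+ peaks, passing or not, 2.44% overlapped a Mof+/- peak. The overlap among passing peaks of the whole list is not given here, so the 3 of 4 are a description.

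**Figure D3:**
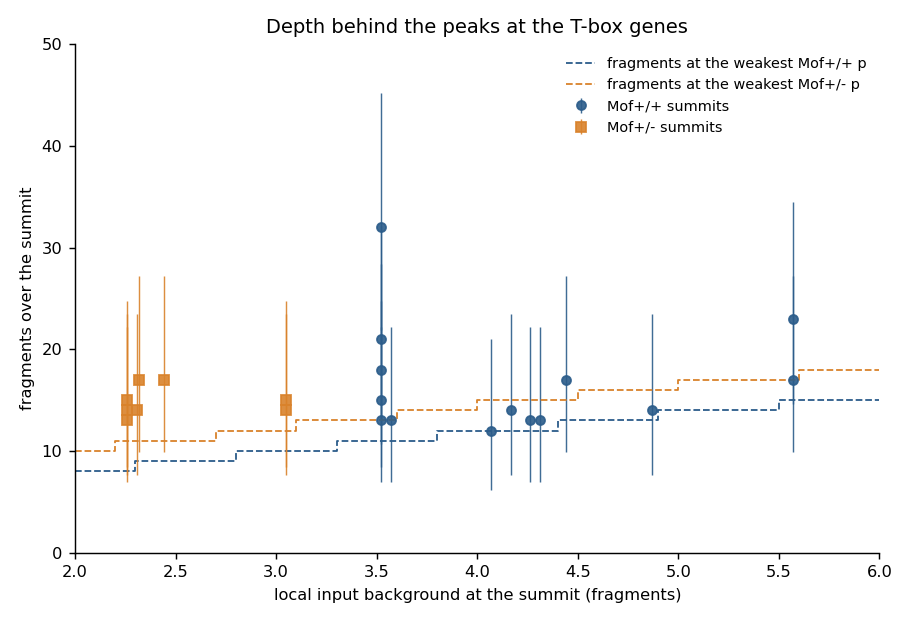
Fragments over each summit against the local input background in fragments (linear axes), for the Mof+/+ peaks (circles) and Mof+/- peaks (squares) at the T-box genes, with 95% Poisson intervals and dashed lines for the count at which each list's weakest p-value is reached. The Tbx2 summit with 32 fragments stands highest, and the Mof+/- summits, at 13 to 17 fragments, sit at lower backgrounds. Several summits share the lowest background of their list.

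Positions relative to the annotation were as follows. Among the 14 Mof+/+ peaks, 9 were found at most 1 kb from a start site, where 62.8% of those at all protein-coding genes were, and 4 covered one, with 9 summits in introns, 4 outside the gene and 1 in untranslated sequence. Among the 8 Mof+/- peaks these numbers were 7, beside 60.8%, and 2, with 4 summits in introns, 2 in coding sequence and 2 outside the gene. For peaks covering a start and for summit locations no share over all protein-coding genes is given, so those counts are a description. With 500 bp in place of 1 kb, the genes with a Mof+/- peak near a start site fell from 5 to 3, and the share of all protein-coding genes was 1.07% in place of 1.32%. Relative to length, Eomes and Tbx2 were the most covered. In Mof+/+ WAT peaks lay over 25.9% of the Eomes span (body with 3 kb around its start sites), 22.2% of Tbx2, 5.49% of Tbx18, 3.26% of Tbx15, 0.936% of Tbx4 and 0.679% of Tbx5. In Mof+/- WAT they lay over 4.93% of Tbx2, 4.23% of Eomes, 4.02% of Tbx18, 1.65% of Tbx15 and 1.35% of Tbx20.

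Peaks just outside the rule were few. Eomes had Mof+/+ peaks 993 bp and 2693 bp beyond the edge, downstream of the gene, with fold enrichments of 4.42 and 2.47, and Tbx18 had one 4136 bp beyond it with a fold enrichment of 2.09. The weakest peaks inside the rule, at Tbx2 and Tbx15, had a fold enrichment of 2.56.

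The bases within 100 bp of each summit were then searched for letters on both strands. The T-box binding core AGGTGTGA was in 0 of the 14 Mof+/+ and 0 of the 8 Mof+/- windows, where 0.683% of all Mof+/+ and 0.978% of all Mof+/- windows held it. That count says only that these letters are not in these windows. RGCY (R a purine, Y a pyrimidine), at which the enzyme used to fragment the chromatin cuts, was in every window of the T-box genes and in 98.3% and 91.5% of all windows of the lists. CpG dinucleotides were also in every window, and in 93.6% and 97.5% of all windows of the lists, with a median of 6.50 (range 2 to 23) for Mof+/+ and 8.00 (4 to 20) for Mof+/-, against 5.00 and 6.00 over all windows. The promoters themselves held a median of 52 CpG within 500 bp of the first start site, against 41 (interquartile range 12 to 69) for all protein-coding genes, but counts did not order the genes by peaks. Tbx3 and Tbx21, with no peak, had 82 and 80, close to the 94 of Tbx2, and Tbx15, with peaks in both lists, had 26.

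The other 7 T-box genes of the mouse were counted by the same rule. Tbr1, a factor of cortical neurons, had 2 Mof+/+ peaks, the stronger with a fold enrichment of 6.55, over 69.0% of its span. It also had 5 Mof+/- peaks with fold enrichments of up to 5.83, each inside a Mof+/+ peak, over 18.8% of the span. Tbx6, a factor of paraxial mesoderm, had 2 Mof+/+ peaks (fold enrichment up to 3.54), and Mga, which encodes a large partner of MAX with a T-box domain, had 1 (fold enrichment 4.65), both without a Mof+/- peak. T, Tbx10, Tbx19 and Tbx22 had no peak. Over all 17 T-box genes, 9 (52.9%) had a Mof+/+ peak and 6 (35.3%) a Mof+/- peak, beside 44.5% and 1.89% of all protein-coding genes.

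Genes often studied together with the T-box factors were counted in the same way, and all counts are read beside 44.5% and 1.89%. The values in parentheses after a gene are the highest fold enrichment of its peaks in the list named. Of 12 genes of fat depot patterning, 6 (50%) had a Mof+/+ peak and 3 (25.0%) a Mof+/- peak. The latter were the homeobox genes Shox2, with 6 peaks of up to 4.91, and Hoxc10 (4.91), and Wt1 (5.52), a gene of visceral fat and mesothelium. Of 8 cardiac factors, 5 (62.5%) had a Mof+/+ peak and 3 (37.5%) a Mof+/- peak, namely Nkx2-5 (3.61), Gata4 (5.21) and Gata6 (4.95), which encode partners of T-box factors in the heart. Of 12 genes that act with or downstream of Tbx21 and Eomes, 6 (50%) had a Mof+/+ peak. In Mof+/- WAT 2 of them (16.7%) had one, Runx3 (5.83), a factor of cytotoxic lymphocytes, and Zeb2 (3.99), a repressor in terminal effector cells. Of 8 beige and brown fat genes, 3 (37.5%) had a Mof+/+ peak, with Slc27a1 (4.87) and Tnfrsf9 (3.92) the strongest, and Ebf2 (3.99), a factor of brown adipocytes, was the 1 with a Mof+/- peak (12.5%).

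**Figure D4:**
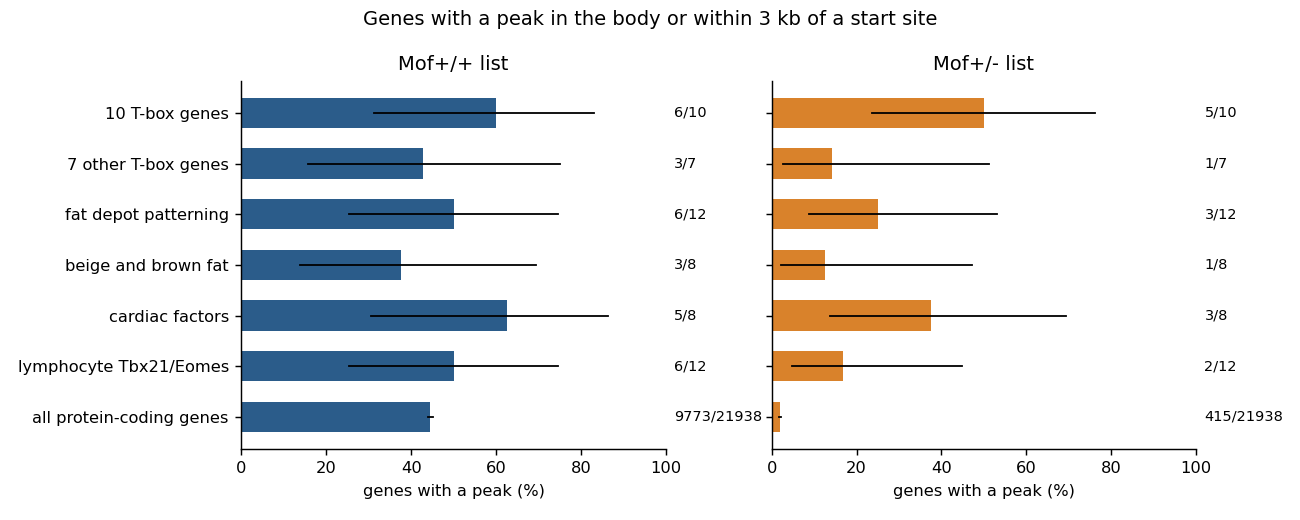
Percent of genes with a peak in the body or within 3 kb of a start site, for the 10 T-box genes, the 7 other T-box genes, 4 lists of related genes and all protein-coding genes, in the Mof+/+ list (left) and the Mof+/- list (right), with 95% Wilson intervals and counts at the right of each bar. The T-box genes stand at 60.0% and 50%, beside 44.5% and 1.89% of all protein-coding genes.

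The tissue label was checked by peaks at cell type markers, which show where MOF was listed and not what was expressed, and the counts are read beside 44.5% and 1.89% of all protein-coding genes. Of 10 adipocyte markers 9 had a Mof+/+ peak, Adipoq, Plin1 and Pparg among them and Lep excepted, and 0 had a Mof+/- peak. The 1 Mof+/+ peak of Pparg had a fold enrichment of 2.65 and was not within 1 kb of a start site. Within 1 kb of a start site, 5 of the 10 adipocyte markers had a Mof+/+ peak, beside 41.0% of all protein-coding genes. Markers of other cells carried peaks as well. In Mof+/+ WAT they were found at 6 of 6 B cell markers, 7 of 10 T and natural killer cell markers, 2 of 6 progenitor markers, 1 of 6 macrophage markers and 1 of 6 mesothelial markers. Within 1 kb of a start site these numbers were 5, 6, 2, 1 and 1. In Mof+/- WAT peaks by the 3 kb rule were found at 1 B cell marker (Pax5), 1 progenitor marker (Pdgfra) and 1 mesothelial marker (Wt1), and at 0 of the T and natural killer cell or macrophage markers. The part of these cells in the peaks at Eomes and the other T-box genes was not tested.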

How the data were processed

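MOF ChIP-seq was analysed from 1 peak list per genotype. The list whose name holds het was taken as Mof+/-, and the other, whose name gives no genotype, as Mof+/+. The methods of the study name snakePipes for mapping to GRCm38 and, for calling peaks, MACS2 (version 2.1.1.20160309.3 in the submitters' processing notes) against input at a q-value threshold of 0.1. Whether libraries were pooled is not stated. The deposited fold enrichment is a ratio, from the authors' peak caller, of fragments to local input background at the summit. The deposited −log10 values of p and of q belong to the same summit, whose deposited position served as a coordinate. A value column in each list (2 in all) stayed unused. H3 libraries and signal tracks were not analysed here.

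Genes and start sites of all transcripts were from GENCODE mouse M21. Peaks on chromosomes 1 to 19, X and Y were assigned as stated in the text. Fragments and background were solved from fold enrichment and p-value (Poisson model, pseudocount 1, tolerance 0.002 in −log10 p), which succeeded for 99.9% of Mof+/+ and 97.9% of Mof+/- peaks, and were checked on simulated data. Intervals are 95% Wilson (shares) or exact Poisson (fragments), carried to fold enrichment with the background held fixed. Few fragments per summit, a median of 16 in Mof+/+ and 14 in Mof+/-, limit the precision. Python 3.11.15 with numpy 2.4.6, pandas 2.3.3, scipy 1.17.1 and matplotlib 3.10.9 was used.

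The T-box genes, the related lists and all settings were chosen with earlier results of these data known. All 17 T-box genes are named. Of each related list, genes with a Mof+/- peak and up to 4 others by highest Mof+/+ enrichment could be named, with values in full for overlapping peaks and for each T-box gene's strongest peak. Summit sequences were to be shown for up to 6 genes, those with a Mof+/- peak first, and 1 of them is not reported here. Alternatives covered the window, transcripts, summit assignment, p-value or q-value, merging, overlap and list size.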

Additional observations from a re-analysis of the deposited data

How the results depend on the processing

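Each genotype is 1 list, so neither a left-out replicate nor the spread between animals could be computed. No paired analysis was possible because the lists carry no replicate numbers. Of 99 values recomputed for 10 results, 83 stayed within 1.5 times the reported one, or within its interval, and 16 did not. Some of the 83 could not move. Reducing the Mof+/+ list, or applying the weakest Mof+/- p-value to both lists, leaves the Mof+/- peaks unchanged by construction. Some overlap shares of Mof+/+ peaks moved by more than 1.5 times and were counted as staying because their interval is wide. The 83 are therefore a count and not a measure of robustness. Reducing the Mof+/+ list by p-value to the size of the Mof+/- list left 1 peak, at Tbx2, and so 1 gene with a Mof+/+ peak by either window, a median fold enrichment of 7.30, a median width of 1616 bp and an overlap of 100%. The 14 Mof+/+ peaks became 9 with the q-value threshold set to 0.01 (median width 725 bp), 6 with 0.001 (1170.5 bp) and 6 at the weakest Mof+/- p-value (1170.5 bp). The 8 Mof+/- peaks became 5 with the q-value threshold of 0.001, and 5 when peaks within 1000 bp were merged. With 500 bp in place of 1 kb, 3 genes had a Mof+/- peak near a start site. When an overlap had to cover 50% of both peaks, 7.14% of the Mof+/+ peaks met it. How near a peak is to the detection limit depends on its background as well as its fragments. The Mof+/+ peak of Tbx15 with 12 fragments had a −log10 p of 3.49, where the weakest of its list was 3.25. The Mof+/- peaks of 17 fragments at Tbx2 and Tbx15 had 9.84 and 10.2, where the weakest was 4.72. A gene's absence from the shallower Mof+/- list cannot be told from low depth.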

Other observations

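Some summit windows held long runs of a single letter, a feature looked at after the sequences had been seen. A run of at least 10 was in 3 of the 14 Mof+/+ windows at the T-box genes (21.4%), against 5.13% of all Mof+/+ windows, and in 1 of the 8 Mof+/- windows (12.5%), against 6.70%. The longest run was at the wide Tbx15 peak, with 29 letters inside the window. It reached the edge of the window, so the full run may be longer. Whether reads were placed differently in these stretches was not tested.

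By the percent of the gene span under peaks in the Mof+/+ and Mof+/- lists, the protein-coding genes closest to Tbx15 (3.26 and 1.65) were Cyp24a1 (3.33 and 1.83), Zdhhc17 (3.70 and 1.63) and Trp73 (3.38 and 1.22), at distances of 0.191, 0.443 and 0.445 percentage points over the 2 values.

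Around Tbx20, 0 Mof+/+ peaks and 2 Mof+/- peaks lay within 100 kb of the start sites, while around Tbx21 there were 10 Mof+/+ peaks and 1 Mof+/- peak.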
